A study of Mus musculus with 30 samples.

Results

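The circadian clock genes Per1, Per2, Per3, Cry1, Cry2, Dbp, Tef, Nr1d1, Nr1d2 and Clock were followed through 30 RNA-seq libraries of mouse B16F10 tumors. They were chosen by symbol. All 10 were found among the 18975 genes of the table, and all 10 passed the filter on low values, which kept 15002 genes that exceeded 0 on the log2 scale in 3 or more libraries. B16F10 is a transplantable mouse melanoma line, and the tumors grew under the skin of female C57BL/6 mice. HET hosts carried the ARE-del allele on 1 of their 2 chromosomes (ARE-del +/-), and WT hosts carried none (labelled ARE-del +/+). ARE-del removes an AU-rich element from the end of the Ifng transcript. The implanted tumor cells do not come from the hosts, so the allele could be carried by host cells alone. After 7 days of growth, mice were injected 2 times a week with anti-PD1, agonist anti-CD40 or the combination, each antibody at 0.25 mg, or with control rat IgG2A. HET hosts gave 3 anti-PD1, 4 anti-CD40, 4 combination and 4 IgG libraries. WT hosts gave 4 anti-PD1, 3 anti-CD40, 3 combination and 5 IgG libraries. Nothing in the labels says whether these libraries come from separate animals, so p-values reflect only the spread among these libraries, which may be technical. The melanocyte genes that define the line stood at a mean log2 value of 10.5 to 11.5 in every library.

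The mammalian clock is a transcriptional feedback loop. CLOCK pairs with BMAL1 (the product of Arntl) and drives the Per and Cry genes, the Nr1d1 and Nr1d2 genes and the output gene Dbp. PER and CRY proteins return to repress that pair, and the nuclear receptors REV-ERB alpha and beta, the products of Nr1d1 and Nr1d2, repress Arntl. In tissues with a running clock these transcripts rise and fall over the day in fixed phase, with Arntl roughly opposite to Nr1d1 and Dbp, so the time at which a tissue is collected moves them. Per1 is also induced by glucocorticoid hormone and by stimuli that switch on immediate early genes. Values below are on the log2 CPM scale, which sets the reads of a gene against the size of its library, and a difference of 1 is a doubling. Recovered depth was 17.6 M to 36.0 M reads per library. HET IgG replicate 2 stood apart from the other libraries, with 6.53% mitochondrial reads and 1554 genes without a read.

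Promoter windows of the members are shown because the loop acts through short promoter motifs. RefSeq (GRCm38.p6) held windows of 250 bases before to 50 after a start site for 9 of the 10 members, 13 windows in all, and Per2 was not matched. The search took exact matches on both strands to the E-box CACGTG, which CLOCK and BMAL1 bind, the D-box TTATGTAA or TTACGTAA, which DBP and TEF bind, the letters AGGTCA within the element of the REV-ERB and ROR receptors, and the cAMP response element TGACGTCA. Per1, Cry1 and Per3 are printed 5′ to 3′ on the gene's own strand, with the matched motifs in capitals. Per1 lies at chr11:69098699-69098998 on the plus strand, Cry1 at chr10:85185005-85185304 on the minus strand and Per3 at chr4:151044616-151044915 on the minus strand.
Per1: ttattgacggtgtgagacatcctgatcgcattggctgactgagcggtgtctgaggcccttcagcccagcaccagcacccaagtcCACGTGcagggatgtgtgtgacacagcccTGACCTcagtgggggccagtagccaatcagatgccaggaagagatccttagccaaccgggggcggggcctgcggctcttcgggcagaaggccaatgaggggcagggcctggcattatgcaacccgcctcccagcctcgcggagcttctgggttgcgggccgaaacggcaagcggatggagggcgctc
Cry1: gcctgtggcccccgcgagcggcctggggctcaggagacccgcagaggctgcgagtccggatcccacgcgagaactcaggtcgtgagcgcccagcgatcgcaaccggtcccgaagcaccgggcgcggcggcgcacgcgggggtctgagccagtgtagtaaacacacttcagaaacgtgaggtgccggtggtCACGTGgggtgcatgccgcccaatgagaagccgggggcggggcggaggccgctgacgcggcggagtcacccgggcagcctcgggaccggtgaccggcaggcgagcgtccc
Per3: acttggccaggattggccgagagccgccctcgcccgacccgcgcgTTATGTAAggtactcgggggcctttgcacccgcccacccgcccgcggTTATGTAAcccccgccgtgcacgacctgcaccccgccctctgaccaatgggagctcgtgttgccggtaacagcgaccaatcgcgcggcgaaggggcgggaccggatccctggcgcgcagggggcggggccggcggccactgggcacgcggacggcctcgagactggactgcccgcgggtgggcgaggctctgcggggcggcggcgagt
The printed Per1 window, 1 of 2 for that gene, held 1 E-box and 1 AGGTCA, read as TGACCT on the printed strand, the Cry1 window 1 E-box, and the Per3 window 2 D-boxes. The other Per1 window (chr11:69099902-69100201, plus strand) held none of these motifs. Tef held 1 E-box in each of its 2 windows. E-boxes occurred in 7.15% of the 32851 mouse windows searched, D-boxes in 1.06% and AGGTCA in 16.3%. Nr1d2 and the third window of Clock also held AGGTCA. Of the 9 members with a window, 3 held an E-box, 1 a D-box and 3 AGGTCA. These counts are per gene over all its windows, so they cannot be set directly against the shares per window. The windows of Cry2, Dbp and Nr1d1 held none of the motifs searched. The cAMP response element was in no member's window and in 1.79% of all. A match is a description of letters and not a bound site.

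The members differed widely in abundance. Per kilobase of exon and over all 30 libraries, Tef, which encodes a D-box-binding activator, was the most abundant at 24.1 ± 6.46 CPM per kb (SD, n = 30), and Per1 followed at 14.1 ± 10.7 CPM per kb. Nr1d2 stood at 8.70 ± 2.04 CPM per kb. Dbp (5.83 ± 2.43), Nr1d1 (5.03 ± 1.58), Clock (4.77 ± 1.45), Cry1 (4.68 ± 2.38) and Cry2 (3.68 ± 1.75 CPM per kb) followed, and neighbours in that order did not differ by more than their spread. Per3 was low at 1.18 ± 0.436 CPM per kb. Per2, the partner of Per1 in the repressor complex, was the scarcest at 0.274 ± 0.228 CPM per kb, with 11 to 175 reads per library. Its log2 values therefore carry more counting error than those of the other members. Tef is on chromosome 15 (81802421 to 81826863), Per1 on chromosome 11 (69095217 to 69109960) and Per2 on chromosome 1 (91415982 to 91459324), in GENCODE vM21 on mm10.

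**Figure D1:**
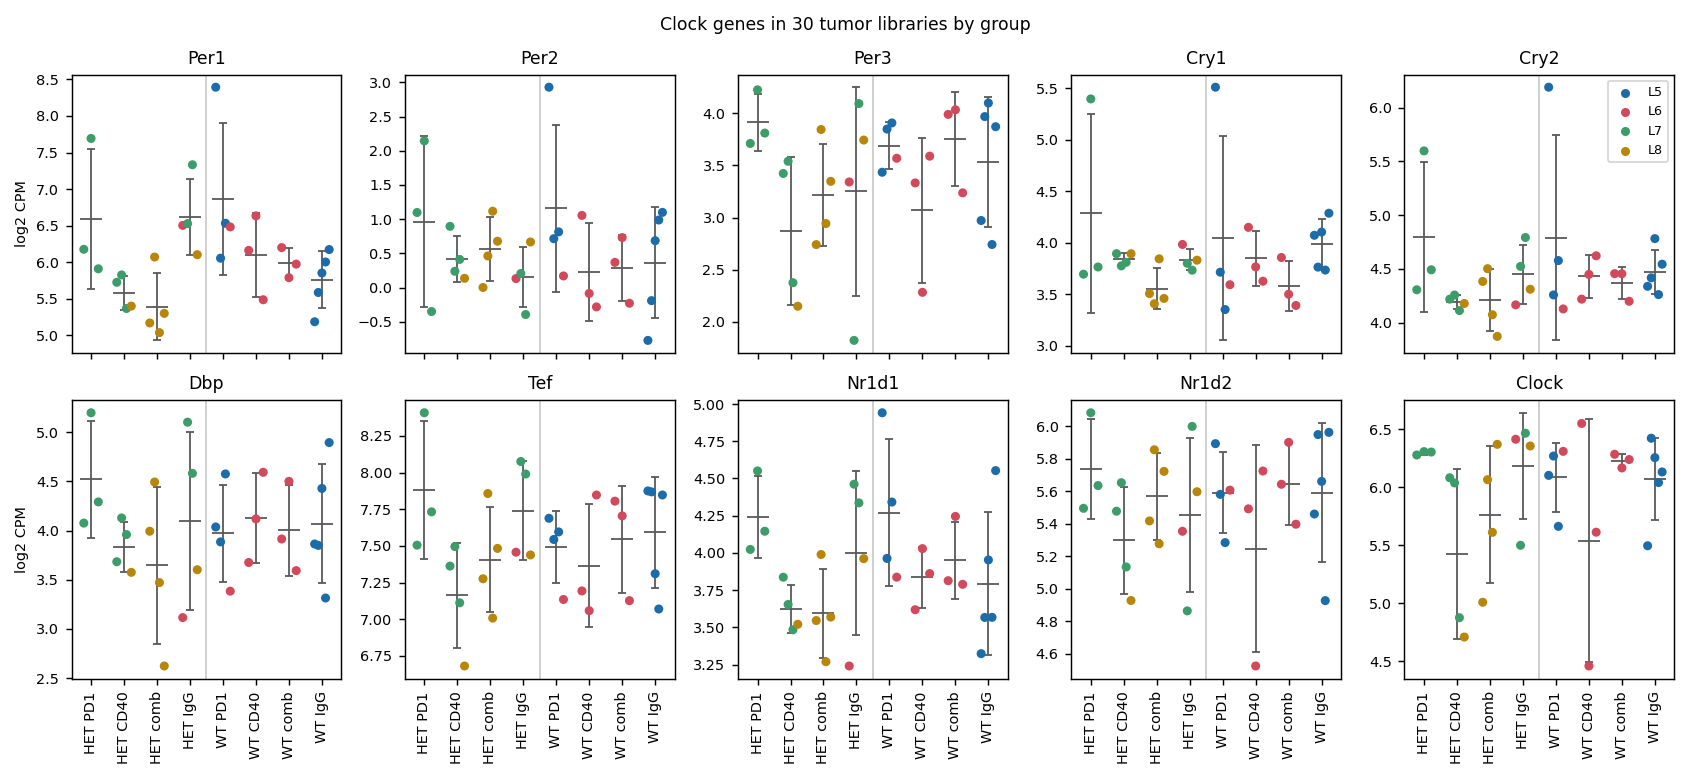
Log2 CPM of each member in 30 libraries by host genotype and treatment, with each point a library coloured by the L number of its label and bars showing the group mean ± SD. Per1 in HET anti-CD40 and HET combination libraries sits between 5.04 and 6.07, below all 4 HET IgG libraries, and 1 library in each anti-PD1 group stands above the rest for Cry1.

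No member passed the test in any comparison of groups. Genes count as called where limma gave an adjusted p (Benjamini-Hochberg, all 15002 genes) below 0.05. Across the 6 treatment comparisons with IgG, the 4 genotype comparisons and the 3 differences between genotypes in a response, 0 genes in all and 0 of 10 members were called (background 0% in each), also when limma's voom was run on the recovered reads. At an unadjusted p under 0.05, between 62 and 2230 genes passed in these 13 comparisons. The 2230 genes (14.9%) were those of HET anti-CD40 against IgG, where 3 of 10 members passed. At most 1 member passed in any other comparison. A moderated F test across the 8 groups called 4 genes (0.0267%), Casp1, Ralgps2, C130026I21Rik and H2-DMb1, named here after their values were seen, and 0 members. The smallest member p in that test was that of Per1 (adjusted p = 0.401 in limma).

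Per1, a repressor of the loop, showed the largest difference of the 10 members in 9 of the 13 comparisons. It stood at 5.72, 5.83, 5.37 and 5.40 in HET anti-CD40 tumors and at 5.17, 6.07, 5.04 and 5.30 in HET combination tumors, against 6.50, 6.53, 7.33 and 6.10 in HET IgG tumors. Every library of both treated groups lay below every HET IgG library, for the combination by a margin of 6.07 against 6.10. HET anti-PD1 tumors had 6.18, 7.69 and 5.91, which overlap HET IgG. The difference from HET IgG was -1.04 ± 0.40 (SE) for anti-CD40 (adjusted p = 0.264 in limma) and -1.22 ± 0.40 for the combination (adjusted p = 0.331 in limma). Both differences use the same 4 HET IgG libraries. Such a separation downward was found in 1.88% of all genes tested for anti-CD40 and in 1.4% for the combination, and in 1 of 10 members in each. Without HET IgG replicate 3, the highest of its group, the differences were -0.80 for anti-CD40 and -0.98 for the combination, and without HET IgG replicate 2 they were -1.07 and -1.25. Within L7, which holds 3 anti-CD40 and 2 IgG libraries of HET hosts, the anti-CD40 difference was -1.29. All 4 HET combination libraries carry L8. Of the HET IgG libraries only replicate 4, the lowest at 6.10, does. For the combination, treatment and L number can therefore hardly be told apart.

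In WT hosts no treated group separated from IgG for Per1. It stood at 8.39, 6.05, 6.53 and 6.48 in WT anti-PD1 tumors, at 6.16, 6.63 and 5.49 in WT anti-CD40 tumors and at 6.20, 5.79 and 5.97 in WT combination tumors, against 5.19, 5.59, 5.85, 6.00 and 6.17 in WT IgG tumors. Each treated group overlapped WT IgG, and the highest WT anti-PD1 library stood alone. The anti-PD1 difference of 1.11 ± 0.38 (adjusted p = 1.00 in limma) was 0.60 without that library, replicate 1. Under IgG, HET tumors were above WT tumors by 0.86 ± 0.38 (adjusted p = 1.00 in limma), with all 4 HET libraries above the WT mean and the ranges overlapping. The response of Per1 differed between HET and WT hosts by -1.37 ± 0.57 for anti-CD40 (adjusted p = 1.00 in limma) and by -1.45 ± 0.57 for the combination (adjusted p = 0.99 in limma). For anti-PD1 it differed by -1.13 ± 0.57 (adjusted p = 1.00 in limma), which became -0.62 without WT anti-PD1 replicate 1 and -1.68 without HET anti-PD1 replicate 2. None of these differences passed adjustment.

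Other tissue moved with these groups. The 20 keratinocyte and 20 skeletal muscle markers were all among the genes kept, and a score is the mean log2 value of a list in a library. The muscle score was 3.78, 0.97, 2.88 and 4.60 in HET anti-CD40 tumors and 2.47, 1.83, 3.76 and 3.002 in HET combination tumors, against -1.38, -0.56, -0.70 and 3.84 in HET IgG tumors. The keratinocyte score ran from -2.04 to 4.98 in HET anti-CD40 and from -1.73 to 3.68 in HET combination tumors, against -2.49 to -0.55 in HET IgG tumors. The adipocyte score, over the 8 of 9 markers that were kept, ran from -0.31 to 2.96 and from 0.029 to 4.17 in those treated groups, against -1.10 to -0.50 in HET IgG tumors. The adipocyte score thus separated both treated groups from IgG in every library, whereas the muscle and keratinocyte scores overlapped. The leukocyte score ran from 3.20 to 4.95 and from 3.04 to 4.77 in those treated groups, against 1.71 to 2.87 in HET IgG tumors. Read totals ran from 25886054 to 31246826 in HET anti-CD40 and from 27365696 to 35996574 in HET combination libraries, against 21849047 to 29995970 in HET IgG libraries. Over the 30 libraries Per1 was lower where the muscle score was higher by rank (Spearman rho = -0.535, adjusted permutation p = 0.0194) but not by Pearson r (-0.318, adjusted permutation p = 0.265, 20 relations), and 6.14% of all genes had a rho with that score at least as far from 0. On values centred on group means the rho of Per1 was -0.253 (adjusted permutation p = 0.455). Within L numbers its r was 0.569 in L5, -0.902 in L6, -0.807 in L7 and -0.222 in L8, so the direction was not the same in all 4. Without both libraries with the highest Cry1, left out after the data were seen, r was -0.663 (adjusted permutation p = 0.0015). Both were also the highest libraries for Per1 itself, so that setting removed the extremes of the gene under test. With both scores as covariates the Per1 differences were -0.99 (adjusted p = 0.980 in limma) and -1.19 (adjusted p = 0.671 in limma). Those covariates were the keratinocyte and muscle scores. The adipocyte and leukocyte scores, which did not overlap between HET IgG and either treated group, were not covariates. In a bulk sample, fewer cells of a type and less RNA per cell cannot be told apart.

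**Figure D2:**
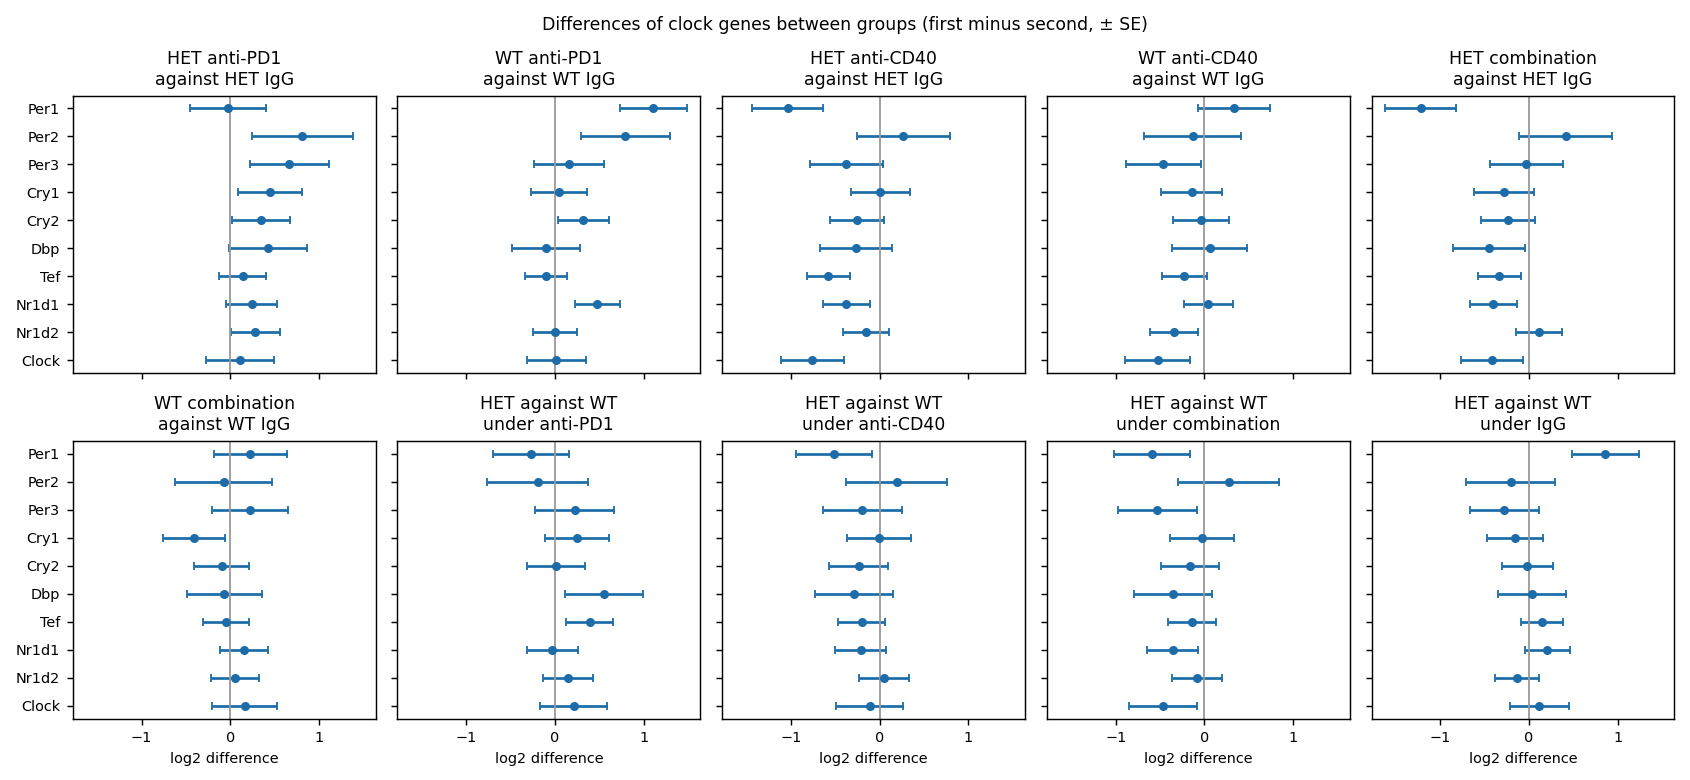
Log2 difference of each member, first group minus second, with bars showing the SE from limma, for the 10 comparisons of 2 groups. Per1 lies at -1.04 and -1.22 in the HET anti-CD40 and HET combination panels and at 1.11 in the WT anti-PD1 panel, and no difference passed adjustment.

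Among the output genes and the nuclear receptors no difference passed adjustment either. Tef stood at 7.36, 7.50, 7.11 and 6.68 in HET anti-CD40 tumors, against 7.46, 8.08, 7.99 and 7.44 in HET IgG tumors. The groups overlapped by 1 library of the treated group, and the difference was -0.58 ± 0.25 (adjusted p = 0.292 in limma). Nr1d1 differed from HET IgG by -0.41 ± 0.27 in HET combination tumors and from WT IgG by 0.48 ± 0.25 in WT anti-PD1 tumors, with adjusted p of 0.622 and 1.00 in limma. Without HET IgG replicate 2 the first was -0.25 and without HET IgG replicate 1 it was -0.66, and without WT anti-PD1 replicate 1 the second was 0.25. Dbp, whose product activates genes through D-boxes, had group means of 3.65 ± 0.80 (HET combination, SD, n = 4) to 4.52 ± 0.60 (HET anti-PD1, n = 3), within the spread of single groups. Under anti-PD1, HET tumors stood above WT tumors by 0.55 ± 0.44 for Dbp and by 0.39 ± 0.27 for Tef (adjusted p = 1.00 for both in limma), and without HET anti-PD1 replicate 2 these were 0.21 for Dbp and 0.13 for Tef. With the L number as a covariate they were -0.43 for Dbp and 0.16 for Tef. In that fit L5 joins L6 through WT anti-PD1 replicate 4 alone. L7 and L8 join L6 through HET IgG replicate 1 alone, so these values lean on single libraries. Between HET anti-PD1 and HET IgG tumors the 2 smallest p were those of Per3 (0.66 ± 0.45) and Per2 (0.81 ± 0.57), with adjusted p of 1.00 in limma. Without HET IgG replicate 2 the Per3 difference was 0.19, and without HET anti-PD1 replicate 2 the Per2 difference was 0.22. Cry1 differed by -0.41 ± 0.35 between WT combination and WT IgG tumors (adjusted p = 1.00 in limma). Nr1d2 had group means of 5.25 ± 0.64 (WT anti-CD40, n = 3) to 5.74 ± 0.31 (HET anti-PD1, n = 3).

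Read as a list, the members stood below IgG in HET anti-CD40 tumors for 8 of 10 genes with a median difference of -0.32, while the median of all 15002 genes was -0.0066 and 7610 of them were below. In HET combination tumors 8 of 10 were below with a median of -0.31, beside -0.0033 for all genes, of which 7561 were below. In HET anti-PD1 tumors 9 of 10 were above with a median of 0.32, beside 0.013 for all genes, of which 7848 were above. Without HET anti-PD1 replicate 2, the count of members above was 6 of 10 with a median of 0.084. Without HET IgG replicate 3 the anti-CD40 median was -0.12, with 8 of 10 below. These 3 comparisons share the HET IgG libraries. In WT hosts 7 of 10 members were below IgG for anti-CD40 (median -0.14) and 5 of 10 for the combination (median 0.0034). For WT anti-PD1 7 of 10 were above (median 0.10). Of all genes, 7722 were below in WT anti-CD40, 7529 below in the WT combination and 6797 above in WT anti-PD1.

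Clock and Per3 were related to the keratinocyte markers of the samples, as were many other genes. Clock, which encodes the activator of the loop, stood at 6.08, 6.04, 4.88 and 4.71 in HET anti-CD40 tumors, against 6.42, 5.50, 6.47 and 6.36 in HET IgG tumors (difference -0.76 ± 0.35, adjusted p = 0.322 in limma, and -0.99 without HET IgG replicate 2). The keratinocyte score of the same libraries was -1.42, -2.04, 4.59 and 4.98 in HET anti-CD40 tumors, against -2.46, -0.55, -2.49 and -2.13 in HET IgG tumors, so both low Clock values of the treated group lay in the libraries with the high score. In WT anti-CD40 tumors Clock was 6.55, 4.46 and 5.61, against 5.50, 6.42, 6.26, 6.04 and 6.13 in WT IgG tumors. The lowest library of all 30, WT anti-CD40 replicate 2, had the highest keratinocyte score, 6.11. Its removal moved the WT difference of -0.53 ± 0.36 to 0.012, and the scores as covariates moved it to 0.093.

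Over 30 libraries Clock correlated with the keratinocyte score at Pearson r = -0.879 and Spearman rho = -0.750 (adjusted permutation p = 0.0002 and 0.0004). Its r was -0.804 without the 2 libraries farthest from the median score. Within L numbers r was -0.636 in L5, -0.967 in L6, -0.891 in L7 and -0.885 in L8, each over 6 to 8 libraries and with an adjusted exact permutation p of 0.0739 or more. It was -0.911 among the 9 libraries with a score above 0 and -0.363 among the 21 below 0, a split made after the data were seen. Per3, the PER gene with a minor role in the core loop, gave r = -0.647 and rho = -0.626 (adjusted permutation p = 0.002 and 0.0021). Without the 2 farthest libraries its r was -0.502 (adjusted permutation p = 0.0693), and within L numbers it was between -0.751 and -0.504. Nr1d2 gave r = -0.479 (adjusted permutation p = 0.0509) and did not pass, and neither did any of the 7 remaining members by r or rho. Of all 15002 genes, 31.2% had an r with the keratinocyte score at least as far from 0 as that of Per3, and 26.1% a rho as far as its rho, so 2 of 10 members is not above the background. An r as far from 0 as that of Clock was found in 3.18% of genes. The genes of a library share its depth and its make-up, and the part of skin RNA in the levels of Clock and Per3 was not tested.

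**Figure D3:**
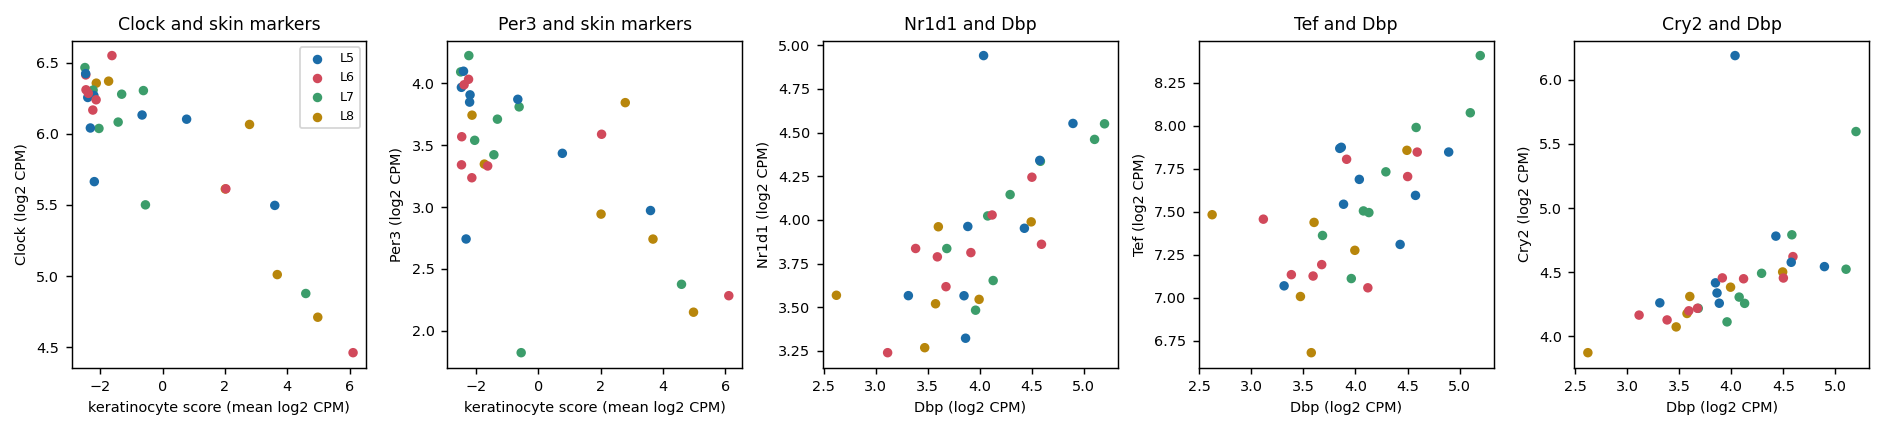
Log2 CPM of Clock and Per3 against the keratinocyte score, and of Nr1d1, Tef and Cry2 against Dbp, with each point 1 of 30 libraries coloured by L number. Clock falls toward 4.46 in the library with the score of 6.11, and Nr1d1, Tef and Cry2 are higher where Dbp is higher, with 2 libraries above the others for Cry2.

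Nr1d1, Tef and Cry2 varied with Dbp across libraries. Pairs without Dbp were not tested. Among those, r was 0.849 for Per3 with Nr1d2, 0.762 for Per3 with Clock and 0.520 for Tef with Cry2. The 4 genes are thus not a set apart from the other members. Of 10 relations of Dbp with the other members and Arntl, 3 passed by Pearson r and 6 by Spearman rho. Of the 15001 other genes, 9.56% had an r with Dbp at least as far from 0 as the weakest of the 3, and 24.7% a rho at least as far as the weakest of the 6. Those that passed by both were Nr1d1 (r = 0.699, rho = 0.743, adjusted permutation p = 0.00035 for r), Tef (r = 0.651, rho = 0.651, adjusted permutation p = 0.00035) and Cry2 (r = 0.551, rho = 0.828, adjusted permutation p = 0.00473), while Per3, Nr1d2 and Arntl passed by rho alone. None of these last 3 passed by rho on values centred on group means (adjusted permutation p = 0.155, 0.189 and 0.155) or without the 2 libraries farthest from the median of Dbp (0.0733, 0.0618 and 0.0618). A rho with Dbp as far from 0 as that of Cry2 was found in 0.133% of genes, as that of Nr1d1 in 0.953% and as that of Tef in 3.55%. Without the 2 libraries farthest from the median of Dbp, r was 0.682 for Nr1d1, 0.659 for Tef and 0.387 for Cry2 (adjusted permutation p = 0.0964), so the Pearson call for Cry2 was lost there, while its rho was 0.796 (adjusted permutation p = 0.00015). Without both libraries with the highest Cry1, left out after the data were seen, r with Cry2 was 0.835 (adjusted permutation p = 5e-05). Those 2 libraries were also the 2 highest for Cry2 itself, so that setting removed the extremes of a gene under test. On values centred on group means r was 0.730, 0.639 and 0.518 for the same 3 genes. Within L numbers, r with Nr1d1 was 0.590 in L5, 0.771 in L6, 0.858 in L7 and 0.456 in L8. With Tef it was 0.385, 0.540, 0.929 and 0.289, and with Cry2 0.155, 0.920, 0.800 and 0.959, in the same order of L numbers. After adjustment over 10 relations, all 3 passed in L7, Cry2 passed in L6 and L8, and none passed in L5.

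Arntl, the partner of Clock and the transcript that runs opposite to Dbp in rhythmic tissue, was not inversely related to it here. Its r with Dbp was 0.391 (rho = 0.444, adjusted permutation p = 0.0809 for r and 0.0294 for rho), and the rho did not pass on centred values, as given above. Within L numbers r was 0.461 in L5, -0.069 in L6, 0.801 in L7 and -0.045 in L8, and it passed in L7 alone (adjusted exact permutation p = 0.0389). Clock itself showed r = -0.086 with Dbp. Among all 30 libraries the Arntl values lay between 2.94 and 4.28, the narrowest range of the 11 genes.

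Cry1, Cry2, Per1 and Per2, which encode the repressor arm, were highest in the same 2 libraries. Cry1 stood at 3.69, 5.40 and 3.76 in HET anti-PD1 tumors and at 5.51, 3.71, 3.35 and 3.59 in WT anti-PD1 tumors, and no library outside these 2 exceeded 4.29. HET anti-PD1 replicate 2 and WT anti-PD1 replicate 1 were thus far above the rest of their own groups. Per2 stood at 2.14 in the HET library and 2.93 in the WT library, against 1.12 in the next of the 30. Cry2 stood at 5.60 in the HET and 6.19 in the WT library, against 4.79 in the next. For Per1 the values were 7.69 in the HET and 8.39 in the WT library, against 7.33 in the next. These 2 libraries were the top pair for 401 of the 15002 genes (2.67%), and for 4 of the 10 members. The pair was taken as the 2 highest libraries of Cry1, so Cry1 is among the 4 by that choice. The count of members therefore cannot be compared with the share of all genes. Ranked by the gap to the next library, Cry1 was 5th, Per2 9th, Cry2 12th and Per1 60th of the 401. The place of Cry1 also leans on the choice of the pair. Wfikkn1 and Fosb led, and Fosb, an immediate early gene, stood at 5.35 in the HET and 7.26 in the WT library, against 3.94 in the next library. These genes were picked after their values were seen.

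The 2 libraries did not share tissue content or L number. HET anti-PD1 replicate 2 carries L7, a muscle score of -0.46 and a keratinocyte score of -2.23, while WT anti-PD1 replicate 1 carries L5, a muscle score of 3.60 and a keratinocyte score of 0.77. Their mean log2 values of 8 glucocorticoid-induced genes, a list that does not hold Per1, were 5.05 in the HET and 5.61 in the WT library, the 2 highest of the 30 libraries. The library labels say nothing that sets them apart, and a cause was not tested. Tef and Dbp were highest in HET anti-PD1 replicate 2 (8.41 and 5.20), whereas in WT anti-PD1 replicate 1 they stood at 7.69 and 4.04, inside the range of the other WT anti-PD1 libraries for Dbp.

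L numbers, 5 to 8, stand before the group name in the description label and are not explained there. L5 holds all 5 WT IgG and 3 WT anti-PD1 libraries. L6 holds 1 WT anti-PD1, 3 WT anti-CD40, 3 WT combination and 1 HET IgG libraries. L7 holds 3 HET anti-PD1, 3 HET anti-CD40 and 2 HET IgG libraries, and L8 holds 1 HET anti-CD40, 4 HET combination and 1 HET IgG libraries. HET and WT thus meet in L6 alone, and for most of the groups L number and group cannot be told apart. The labels give neither a time of day nor a collection date.

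Dbp had a lowest, median and highest value of 3.31, 3.96 and 4.90 in L5, of 3.11, 3.80 and 4.59 in L6, of 3.68, 4.21 and 5.20 in L7 and of 2.62, 3.59 and 4.49 in L8. Nr1d1 had 3.32, 3.96 and 4.94 in L5, 3.24, 3.82 and 4.24 in L6, 3.48, 4.08 and 4.55 in L7 and 3.27, 3.56 and 3.99 in L8. Medians of both genes were highest in L7 and lowest in L8, and all 4 ranges overlapped for each gene. With the group terms kept, limma's F test of the L number called 1 gene (0.00667%), Cpne4, named after its value was seen, and 0 members. The members with the smallest p were Nr1d1 and Dbp, at an adjusted p of 0.90 in limma for both, and both passed an unadjusted p of 0.05, as did 5.37% of all genes. Without group terms it called 1 gene (0.00667%), Ralgps2, and 0 members, and no member passed an unadjusted p of 0.05, as 12.4% of all genes did. Medians were lowest in L8 for 8 of the 10 members, all but Per2 and Tef, and for 37.0% of all 15002 genes. Per1 was lowest in L8, with a median of 5.35 against 6.04 in L7, and L8 is also the L number of all 4 HET combination libraries.

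**Figure D4:**
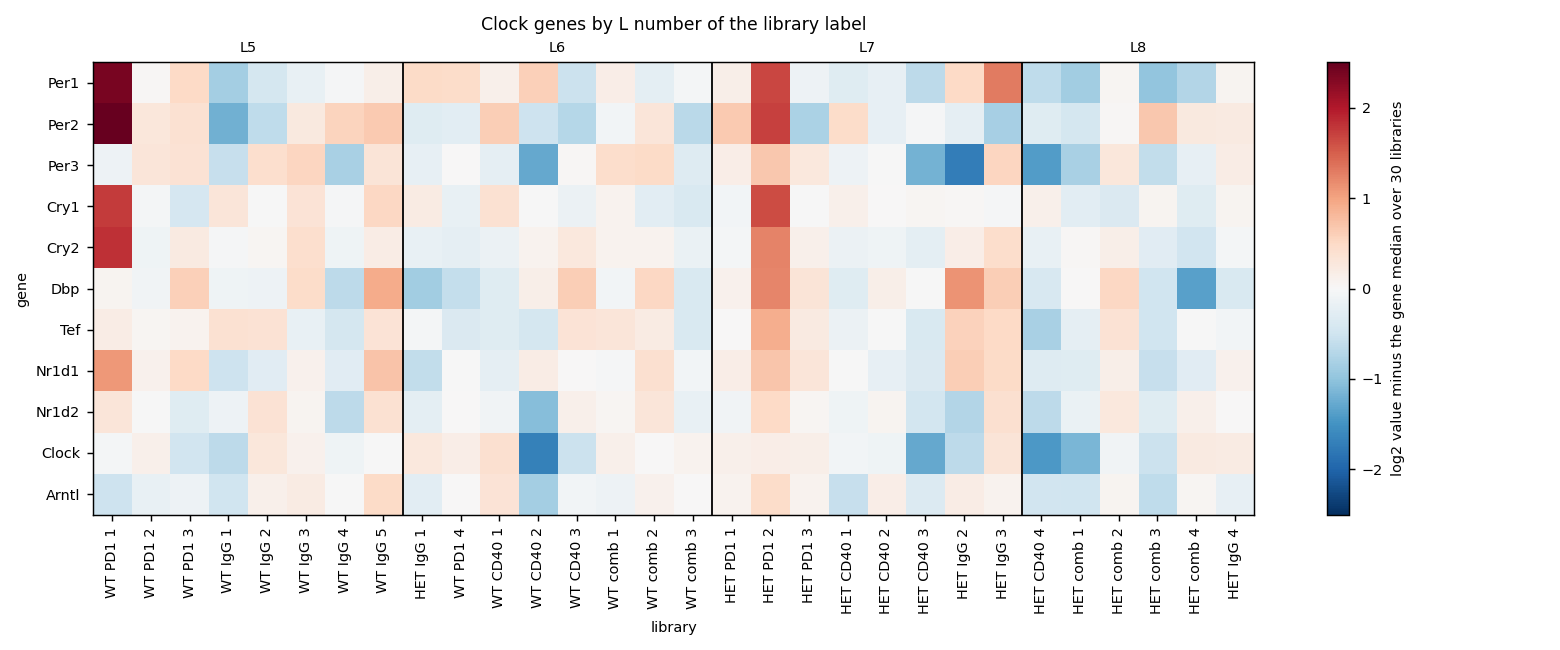
Log2 value of each member and of Arntl minus its median over 30 libraries, with libraries ordered by L number and then by group. WT anti-PD1 replicate 1 in L5 and HET anti-PD1 replicate 2 in L7 stand out in the rows of Per1, Per2, Cry1 and Cry2, and medians are lowest in L8 for 8 of the 10 members.

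The rest of the pathway gave no call either. Of 22 further clock genes, 19 passed the filter on low values. In limma, 0 of these 19 were called in any of the 13 comparisons (background 0%). At most 2 passed an unadjusted p under 0.05 in a comparison, in HET anti-CD40 against HET IgG, where 14.9% of all genes did. Bhlhe40, a repressor that competes for E-boxes, differed by -0.62 ± 0.24 between HET combination and HET IgG tumors (adjusted p = 0.401 in limma). It differed by -0.63 ± 0.25 between HET and WT combination tumors (adjusted p = 0.773 in limma). Nfil3, a repressor at D-boxes, differed by 0.62 ± 0.30 between WT anti-PD1 and WT IgG tumors (adjusted p = 1.00 in limma). Ciart, a repressor of CLOCK and BMAL1, differed by -0.39 ± 0.29 and Arntl by -0.20 ± 0.23 between HET combination and HET IgG tumors (adjusted p = 0.666 and 0.797 in limma). Of the 8 glucocorticoid-induced genes 0 were called in any of the 13 comparisons (background 0%). In WT hosts 7 of 8 were above IgG under anti-PD1 (median 0.40), 7 of 8 under anti-CD40 (0.42) and 6 of 8 under the combination (0.073). In HET hosts the counts were 4 of 8 (median -0.0022), 5 of 8 (0.22) and 5 of 8 (0.033), in the same order. Of all 15002 genes, 6797 were above in WT anti-PD1 and 7280 in WT anti-CD40.

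The transcripts most like each member over the 30 libraries were found by Spearman rho. Clock was most like Nin and Phf20l1 (rho = 0.953 for both) and Ccdc88a (0.951). Per3 was most like Eif2ak2 (0.873), Epas1 (0.870) and Adar (0.858), and Nr1d2 was most like Fbxo11 and Eif2ak2 (0.886 for both). Dbp was most like Inca1 (0.877), Maged2 (0.876) and 4732491K20Rik (0.871), and Tef was most like Txndc16 (0.895). A member was on 2 of these lists. Cry2 was most like Dbp (0.828), closely followed by the mitochondrial transcript mt-Tl1 (0.806) and by Podxl2 (0.799). The second gene for Nr1d1 was Cry2 (0.751), after Plekhg5 (0.782) and just before Gab1 (0.749). Per1 was most like Errfi1 (0.853), a glucocorticoid-induced gene of the list above, and then Plekhg5 (0.734). Cry1 (Nop14, 0.735) and Per2 (Gm24357, 0.647) had the weakest first matches.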

How the data were processed

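RNA of 30 tumor libraries was sequenced. The submitters' processing notes name STAR, edgeR and the mm10 build without versions. The deposited log2 CPM values were computed by the authors against an effective library size, with a prior count of 2 reads as the values themselves show. Every value came out as a whole number of reads within a tolerance of 0.01 reads. Strandedness and the annotation release are not given in the sources used here, so overlapping genes can share reads.

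A gene was kept if it exceeded 0 on the log2 scale in 3 or more libraries, which left 15002 of 18975. limma 3.58.1 in R 4.3.3 fitted 1 mean per group with an intensity trend, after a check on simulated data. Correlations used two-sided tests of 100000 permutations (exact for 8 or fewer libraries, smallest possible p 1e-05 otherwise), adjusted over 10 or 20 relations. The members and lists were chosen with earlier results of these data known. All members are described, and the 2 with the smallest p in each comparison were the ones tested under every alternative. Of the identifiers, 18837 were in GENCODE vM21.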

Additional observations from a re-analysis of the deposited data

Results flagged for a closer look

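Of 50 groups of 4 or 5 values, 1 for each member and group of that size, 2 held a value set apart by a gap larger than Dixon's critical value, which chance gives in about 1 in 20 groups. Cry1 was 5.51 in WT anti-PD1 replicate 1, against 3.71 in the next library of that group. Clock was 5.50 in HET IgG replicate 2, against 6.36 in the next library of that group, and this library also had the highest mitochondrial share of reads (6.53%) and the most genes without a read (1554) of the 30. Without HET IgG replicate 2, Dbp passed with 5 of its 10 relations by Pearson r in place of 3, and the relation of Clock with the keratinocyte score was r = -0.892.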

How the results depend on the processing

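No member was called in any comparison or F test under any alternative run. With the L number as a covariate, 0 genes differed across the 8 groups. Differences then changed sign for Cry1 in the WT combination (0.19) and for Dbp between HET and WT under anti-PD1 (-0.43). Dbp also changed sign in the anti-PD1 response between genotypes (-0.26). Only WT anti-PD1 replicate 4 and HET IgG replicate 1 join L6 to the other L numbers in that fit. With the tissue scores as covariates, 0 genes differed across the groups, and Clock in WT anti-CD40 turned to 0.093. The L number called 0 genes at log2(CPM + 1), without the filter, and without both libraries with the highest Cry1, and that last setting called 1 gene in HET anti-PD1. Marker relations called were 1 without the 2 farthest libraries, 0 in L5, L7 and L8, 1 in L6 and 4 without both high-Cry1 libraries. Dbp relations called were 0 in L5, 1 in L6, 5 in L7 and 1 in L8.

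Leaving out 1 library at a time, genes called ran from 0 to 15 for the F test across groups, 0 to 2 for the L number, 0 to 1 for HET anti-CD40, 0 to 1 for HET anti-PD1 and 0 to 6 for the HET combination. The count of 15 came without WT anti-PD1 replicate 1, that of 6 without HET IgG replicate 4. Ranges of differences that crossed 0 were -1.03 to 0.012 for Clock and -0.58 to 0.016 for Nr1d2 in WT anti-CD40 (without its replicate 2), and -0.36 to 0.037 for Tef between HET and WT under anti-CD40 (without WT anti-CD40 replicate 3). Dbp relations called were 5 without HET IgG replicate 2. The F test of the L number could not be fitted without WT anti-PD1 replicate 4 or HET IgG replicate 1.

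The median correlation of same-numbered deviations was -0.0228 (94 pairs), against 0.0139 for other numbers (298 pairs). Single pairs ran from -0.785 to 0.794 for same numbers and from -0.793 to 0.824 for other numbers. The medians thus gave no sign of pairing by replicate number, but cannot decide it. With a replicate block, the Per1 difference was -1.04 for HET anti-CD40 (adjusted p = 0.313 in limma), the F test across groups called 5 genes, and no call of a member changed. The planned count test was not run, since the deposited unit is log2. limma's voom on the recovered reads, chosen after seeing the data, took its place and called 0 genes in the 13 comparisons. Per2, at 11 reads in its lowest library, is the member that depth limits.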
